A study of Mus musculus with 8 samples.

Results

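AP-1 is a family of dimeric leucine-zipper transcription factors made of Fos and Jun subunits, and Atf3, a related protein, can join its dimers. Many of its genes are immediate early genes, which cells switch on from existing factors within minutes of a growth factor, cytokine or stress signal, before any new protein is made. Serum response factor bound at CArG boxes and Creb or Atf factors bound at cyclic AMP response elements (CRE) are the best known switches in their promoters, and in blood progenitors these genes are known to respond to cytokines and to the handling of cells. The genes described here were chosen by name: Fos, Fosb, Fosl1 and Fosl2 of the Fos family, Jun, Junb and Jund of the Jun family, Atf3, and the immediate early genes Egr1 and Ier2. They are 10 of the 21755 protein-coding genes annotated on chromosomes 1 to 19 and X. All peaks that overlapped a gene body or the 20 kb on each side of it were taken, which gave 473 of the 501728 peaks in the lists, and these merged into 82 of 123260 accessible regions.

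The assay was ATAC-seq, in which Tn5 transposase inserts sequencing adapters into accessible chromatin, on about 10000 sorted bone marrow cells per reaction. LSK+ cells (Lin- Sca-1+ c-Kit+) hold the hematopoietic stem cells and early progenitors, and LSK- cells (Lin- Sca-1- c-Kit+) hold the myeloid and erythroid progenitors. Both were sorted from female mice, 4.5 months old and of 129Sv4/Jae x B6 background, that were either wild type (WT) or lacked Xist on both X chromosomes in blood cells through Vav-iCre (XistΔ/Δ). Each of the 4 groups had 2 libraries, and the labels do not say whether these came from separate mice, so p-values measure only the spread between these libraries. The deletion acts in the whole blood lineage from the stem cell on, so an effect inside LSK- cells and an effect inherited from LSK+ cells cannot be told apart. The mixture of progenitors inside each sorted gate, and its change with genotype, could not be told apart from changes within cells either.

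The unit of every level below is a percentile. Within each library the peaks were ranked by their −log10 p, so that 100 is the strongest peak of the list and 0 is written where the list held no peak. The lists held 29829 to 91590 peaks, and the XistΔ/Δ list was longer than the WT list in 4 of 4 pairs matched by cell type and replicate number. Depth, read from the background level behind the peaks, was also higher in XistΔ/Δ in 4 of 4 pairs and ran from 0.482 to 3.87 fragments. A longer list adds weak peaks at the bottom and so raises the percentile of an unchanged peak, which is why genotype differences are also given over the 29829 strongest peaks of every list. Replicate 1 of each group was sequenced on one instrument type and replicate 2 on another. At the start site of Xist the strongest peak had percentiles of 80.6, 51.3, 80.2 and 70.2 in the 4 WT libraries, and in XistΔ/Δ it was listed in 1 of 4 libraries (LSK- replicate 2), at 26.9. The cell type markers were not cleanly divided, and none passed the limma test between the cell types. Gata1 entered that fit only through LSK-, so no p is given for it. Among the markers listed in both cell types the lowest adjusted p by limma was 0.197, for Mpo. Of the markers of LSK- progenitors, Gata1, the erythroid master regulator (listed in the 4 LSK- libraries only), Epor, Mpo and Elane had the higher mean promoter percentile in LSK-, while Klf1 (91.5 in LSK+ and 87.4 in LSK-), Csf1r (91.0 and 79.7) and Prtn3 (76.3 and 64.6) had it in LSK+. Of the markers of LSK+ cells, Hlf, Procr, Meis1 and Flt3 were higher on average in LSK+ and Mecom, Ly6a and Ly6e in LSK-. The promoter of Ly6a, which encodes the Sca-1 antigen of the sort, was listed in only 1 LSK+ library and 1 LSK- library. Of the markers of mature cells, Cd3e, Cd4, Cd8a and Ly6g had no promoter peak in any library, while Itgam had one in 6 libraries. Their part in the values below was not tested.

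The upstream sequences differed in which of the searched motifs they held in full. The runs below are mouse reference sequence (build GRCm38/mm10, RefSeq assembly), read 5′ to 3′ on the strand of the gene, and capitals mark the letters searched. For Fos (chr12:85473540-85473839, + strand, from −350 to −51 of the start site) they mark the CArG box at −309 and the reverse of GGGCGG, the SP-factor motif, at −74. For Jun (chr4:95052223-95052422, − strand) and Ier2 (chr8:84662853-84663052, − strand) the 200 bases before the start site are shown with a CRE-like element, TGACNTCA, at −45 in each, and in Jun also the reverse of GGGCGG at −89 and a CCAAT box at −65. For Atf3 (chr1:191183341-191183540, − strand), whose promoter differed most between the libraries, the 200 bases before the inner start site hold GGGCGG and no other motif searched.
Fos: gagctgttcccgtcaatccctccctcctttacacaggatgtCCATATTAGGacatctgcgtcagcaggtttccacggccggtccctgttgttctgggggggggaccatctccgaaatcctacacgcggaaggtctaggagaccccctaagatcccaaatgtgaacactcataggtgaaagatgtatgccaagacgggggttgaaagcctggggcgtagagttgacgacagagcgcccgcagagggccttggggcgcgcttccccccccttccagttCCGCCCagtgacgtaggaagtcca
Jun: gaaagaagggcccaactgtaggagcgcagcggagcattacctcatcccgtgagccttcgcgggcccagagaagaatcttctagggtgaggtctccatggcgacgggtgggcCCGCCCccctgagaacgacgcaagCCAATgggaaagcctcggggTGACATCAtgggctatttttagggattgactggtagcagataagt
Ier2: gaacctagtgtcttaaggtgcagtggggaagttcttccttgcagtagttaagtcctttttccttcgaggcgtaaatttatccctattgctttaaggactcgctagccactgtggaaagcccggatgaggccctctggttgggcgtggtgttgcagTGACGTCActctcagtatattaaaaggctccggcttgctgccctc
Atf3: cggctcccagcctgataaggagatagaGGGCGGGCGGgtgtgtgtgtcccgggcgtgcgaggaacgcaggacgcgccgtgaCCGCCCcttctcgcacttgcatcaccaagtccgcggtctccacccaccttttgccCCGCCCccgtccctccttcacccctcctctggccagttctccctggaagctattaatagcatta
Over the 500 bases before the start site and on both strands, the CArG box occurred at 3 of the 10 genes (Fos, Fosb and Egr1) and at 2.73% of all protein-coding genes. Egr1 held 5 such boxes, the nearest at −83. TGACNTCA occurred at Jun, Jund and Ier2, against 10.9% of all genes. Only full matches were counted, so the partial match TGACGT that follows the SP-factor motif in the Fos run was left unmarked. TGANTCA, the AP-1 site itself, occurred only at Fos among the 10, at −462, and at 12% of all genes. GGGCGG occurred at 9 of the 10 genes, with Junb the exception, and at 47% of all genes. A match is a description of letters and not a bound site.

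Most of these promoters were among the stronger peaks of every library. Over the 8 libraries the mean promoter percentile was 95.9 at Jund, 94.6 at Jun, 90.5 at Fosb, 90.2 at Fos and 90.0 at Ier2, followed by 84.2 at Junb, 83.0 at Fosl2 and 80.6 at Egr1. The median over the 15712 protein-coding genes with a promoter peak in at least 2 libraries was 80.9. Egr1 lay just below it, and Atf3, at 61.1, and Fosl1, at 34.3, lay well below it. Neighbours in this order from Jund to Ier2 lay within the SD between replicates, which was 2.13 to 4.29 points for these genes, except that the step from Jun to Fosb was of about that size. The gap from Egr1 to Atf3 and from Atf3 to Fosl1 was larger than the replicate SD of Egr1 (4.81) and Atf3 (14.6).

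**Figure D1:**
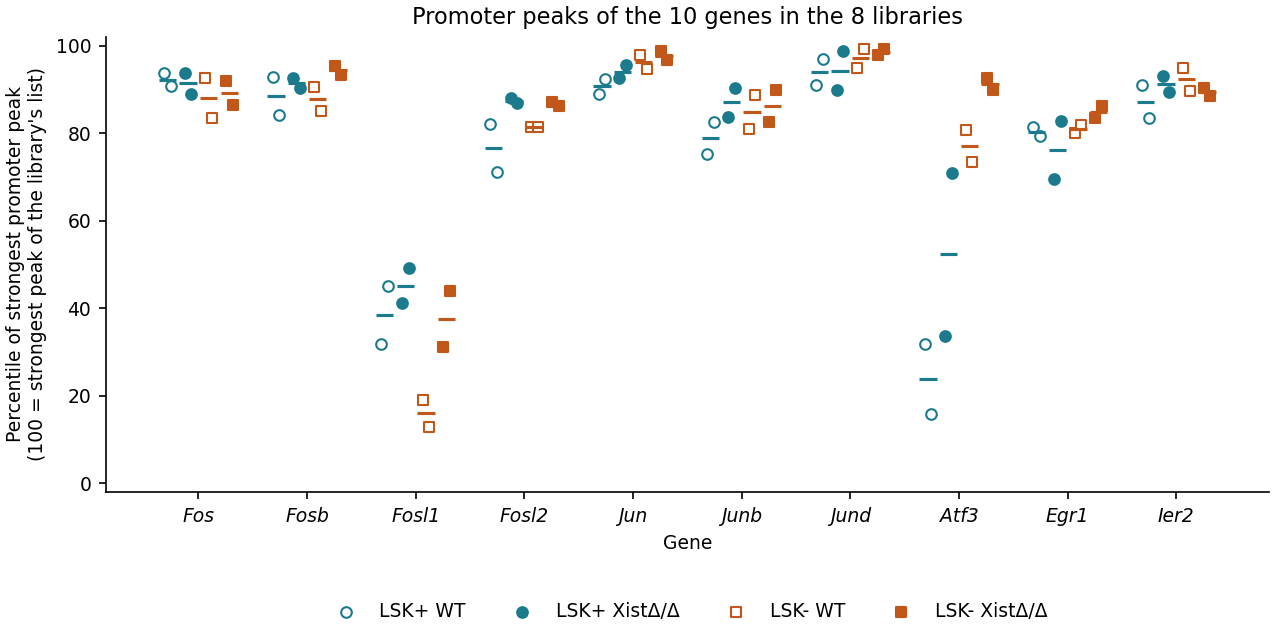
Percentile of the strongest promoter peak (summit within 3 kb of a start site) of each gene in each of the 8 libraries. Open symbols are WT, filled symbols XistΔ/Δ, circles LSK+, squares LSK-, and short lines the means of 2 libraries. Of the 10 genes, 8 sit at 69.6 or above in every library, Fosl1 stays between 12.8 and 49.1, and Atf3 is higher in all 4 LSK- libraries than in all 4 LSK+ libraries.

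In the Fos family, Fos itself had a strong promoter peak in both cell types. Its percentiles were 93.6 and 90.8 (WT) against 93.8 and 88.9 (XistΔ/Δ) in LSK+, and 92.7 and 83.4 (WT) against 91.9 and 86.5 (XistΔ/Δ) in LSK-. The groups overlapped throughout, and the replicates of a group differed by 5.59 points on average, more than the genotypes (0.16 ± 3.03, difference ± SE) or the cell types (−3.18 ± 3.03, LSK- minus LSK+). Fosb, whose full-length product dimerises with Jun proteins, had percentiles of 92.7 and 84.1 (WT) against 92.7 and 90.2 (XistΔ/Δ) in LSK+, and 90.4 and 85.0 (WT) against 95.3 and 93.3 (XistΔ/Δ) in LSK-. The groups overlapped here too (genotype 4.83 ± 2.75). Its strongest peak lay 892 to 1007 bases downstream of a start site, in an intron, in all 8 libraries.

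Fosl2, which encodes Fra-2, had its promoter peak at 82 and 71.0 (WT) against 88.0 and 86.8 (XistΔ/Δ) in LSK+, and 81.3 and 81.3 (WT) against 87.0 and 86.2 (XistΔ/Δ) in LSK-. All 4 XistΔ/Δ libraries were above all 4 WT libraries, by 8.10 ± 2.83 points on average. In the limma fit over all genes this gave an adjusted p of 0.305 (Benjamini-Hochberg), and over equal numbers of top peaks the difference shrank to 1.35 points. Fosl1, which encodes Fra-1, was the weakest promoter of the 10, with 12 to 35 fragments at its summit. It stood at 31.8 and 45.1 (WT) against 41.2 and 49.1 (XistΔ/Δ) in LSK+, and 19.1 and 12.8 (WT) against 31.1 and 44.0 (XistΔ/Δ) in LSK-. The cell types overlapped (−15.0 ± 4.83, adjusted p = 0.367 by limma), and so did the genotypes (14.2 ± 4.83, adjusted p = 0.297). A second Fosl1 region, 1.3 kb inside the gene in an intron and chosen after its values were seen, was listed in all 4 LSK+ libraries (24.1, 37.0, 3.60 and 26.8) and in only 2 LSK- libraries, both XistΔ/Δ (1.20 and 18.4). Its cell type difference of −18.0 ± 7.73 points had an adjusted p of 0.332 in limma. It is shown for its TGANTCA match in capitals, 7 bases from the summit (chr19:5448748-5448948, + strand).
Fosl1 intron: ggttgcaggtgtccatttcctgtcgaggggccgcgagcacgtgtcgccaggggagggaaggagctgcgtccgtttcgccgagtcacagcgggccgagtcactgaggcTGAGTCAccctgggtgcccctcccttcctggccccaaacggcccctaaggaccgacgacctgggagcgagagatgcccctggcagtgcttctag

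The Jun family supplies the partners of Fos proteins. Jun and Junb are themselves immediate early genes, and Jund is expressed more evenly. The Jun promoter stood at 89.0 and 92.4 (WT) against 92.5 and 95.5 (XistΔ/Δ) in LSK+, and 97.8 and 94.6 (WT) against 98.8 and 96.6 (XistΔ/Δ) in LSK-. Each LSK- library was above every LSK+ library except for 1 crossing, LSK- WT replicate 2 below LSK+ XistΔ/Δ replicate 2. The difference of 4.60 ± 1.97 points had an adjusted p of 0.496 in limma. Jund stood at 91.0 and 97.0 (WT) against 89.9 and 98.7 (XistΔ/Δ) in LSK+, and 94.9 and 99.2 (WT) against 97.7 and 99.2 (XistΔ/Δ) in LSK-. Replicate 2 was the higher one in all 4 groups, by 5.14 points on average, which exceeded the genotype difference of 0.81 ± 2.93 and the cell type difference of 3.64 ± 2.93. Junb also had its higher value in replicate 2 of all 4 groups (75.2 and 82.6, 83.7 and 90.4, 80.8 and 88.7, 82.5 and 89.8, in the same order), with a mean replicate difference of 7.32 points, although in replicate 1 of the LSK- groups its strongest peak was not the one at the start site. At Fos, Fosb and Ier2 the mean went the other way, with replicate 1 higher by 5.59, 4.62 and 4.64 points. The replicate number goes with the sequencing instrument, and its part in these differences was not tested.

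Atf3, a stress-induced factor that often represses its targets, showed the widest contrast between the cell types among the 10 promoters. The gene has 2 annotated start sites, and its strong peak lay 0.156 kb upstream of the inner one, inside an intron of the longer transcript (chr1:191182455-191183873). This region stood at 20.4 and 15.9 (WT) against 33.6 and 70.9 (XistΔ/Δ) in LSK+, and 80.7 and 73.4 (WT) against 92.5 and 89.9 (XistΔ/Δ) in LSK-. All 4 LSK- libraries were above all 4 LSK+ libraries, with LSK+ XistΔ/Δ replicate 2 just below the lowest LSK- value. The fragments at the summit were 12 to 60 in LSK+ and 46 to 232 in LSK-. The difference was 48.9 ± 8.99 points, 59.6 within replicate 1 and 38.2 within replicate 2, against a mean replicate difference of 13.0 points. It missed the threshold in the limma fit over 92019 regions (adjusted p = 0.0638, and 0.0551 with the replicate number as a block) and passed it over equal numbers of top peaks (55.5 points, adjusted p = 0.0233). In the top-peak fit the LSK+ replicate 1 peaks of WT and of XistΔ/Δ lay outside the 29829 kept and counted as 0. The wider difference and the call there thus rest partly on values set to 0. With the rule that the peak of a library fills at least 50% of the merged region, 10.4 points were left (adjusted p = 0.66). Taken as a promoter value over both start sites, the difference was 46.0 ± 9.15 points with an adjusted p of 0.184, and the value of LSK+ WT replicate 1 then came from the outer start site.

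Near the outer Atf3 start site a weak region was listed in 3 of 8 libraries, all replicate 1 (31.8 for WT and 33.1 for XistΔ/Δ among LSK+, and 37.1 for WT among LSK-). Between the genotypes the Atf3 promoter was higher in XistΔ/Δ in 4 of 4 pairs, by 21.3 ± 9.15 points (adjusted p = 0.357, limma). This difference was 6.77 points within replicate 1 and 35.8 points within replicate 2.

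Egr1 and Ier2 are immediate early genes outside the AP-1 family. Egr1 encodes a zinc finger factor known to keep stem cells quiescent and in their niche, and Ier2 a small nuclear protein. The Egr1 promoter stood at 81.3 and 79.3 (WT) against 69.6 and 82.7 (XistΔ/Δ) in LSK+, and 80.1 and 81.7 (WT) against 83.5 and 86.2 (XistΔ/Δ) in LSK-, with overlapping cell types and genotypes. Over equal numbers of top peaks its genotype difference went from −0.12 ± 3.32 to −17.4 points, the widest shift among the genes with both values, and had an adjusted p of 1 in limma. The Ier2 promoter stood at 91.1 and 83.3 (WT) against 93.0 and 89.5 (XistΔ/Δ) in LSK+, and 95.0 and 89.6 (WT) against 90.4 and 88.5 (XistΔ/Δ) in LSK-. In 3 libraries (LSK+ XistΔ/Δ replicate 2, LSK- WT replicate 2 and LSK- XistΔ/Δ replicate 1) this value came from a separate region with its summit more than 1 kb upstream. The genotype difference was 4.05 points on average in LSK+ cells and −2.82 in LSK- cells, and at the start-site region alone the LSK- pairs went in opposite directions (−5.72 and 2.27). The test of the difference of differences in the promoter value gave −6.87 ± 5.36 with an adjusted p of 1 (limma), so the opposite signs did not hold up against the spread between replicates.

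None of the 10 promoters passed the limma test (Benjamini-Hochberg adjusted p below 0.05) for genotype, for cell type or for their interaction. The background was low as well: of the 15712 promoters, 0.0127% were called higher in XistΔ/Δ, 0.0% lower, 0.153% higher in LSK- and 0.153% higher in LSK+, and none had an interaction. At an unadjusted p below 0.05 there were 2 of the 10 for genotype (Fosl1 and Fosl2), 2 for cell type (Atf3 and Fosl1) and none for the interaction, against 15.0% of all promoters for genotype, 10.97% for cell type and 1.90% for the interaction. Groups that did not overlap occurred at 2 genes: Atf3 for LSK- above LSK+, where 1.79% of all promoters did so, and Fosl2 for XistΔ/Δ above WT, where 8.18% did so. No promoter of the 10 had all LSK+ above all LSK- libraries (1.97% of all) or all WT above all XistΔ/Δ libraries (0.00636% of all). Over equal numbers of top peaks, 2 of the 9 promoters fitted, Atf3 and Jun, had all LSK- above all LSK+ libraries (4.33% of all). None had the reverse (3.07%). In the same lists 1 promoter, Ier2, had all WT above all XistΔ/Δ libraries (0.433%) and none the reverse (0.281%). The median genotype difference of the 10 was 3.61 points, against 6.38 over all tested promoters, and the median cell type difference was 2.23 against 1.18.

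The genotype difference was positive for 9 of the 10 promoters over the full lists and for 4 of the 9 that could be fitted over equal numbers of top peaks, where Fosl1 was left with too few peaks. Over the top peaks Fos (−8.16), Junb (−2.58), Jund (−1.10), Egr1 (−17.4) and Ier2 (−8.60) had negative differences, while those of Fosb (0.960), Fosl2 (1.35), Jun (0.541) and Atf3 (14.4) were positive. The median was −1.10 points for the 9 and −0.0909 over all 13173 promoters so fitted, with adjusted p of 1 for each of the 9. Over the full lists the genotype difference exceeded the mean difference between replicates at 4 of the 10 promoters, and the cell type difference did so at 3.

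**Figure D2:**
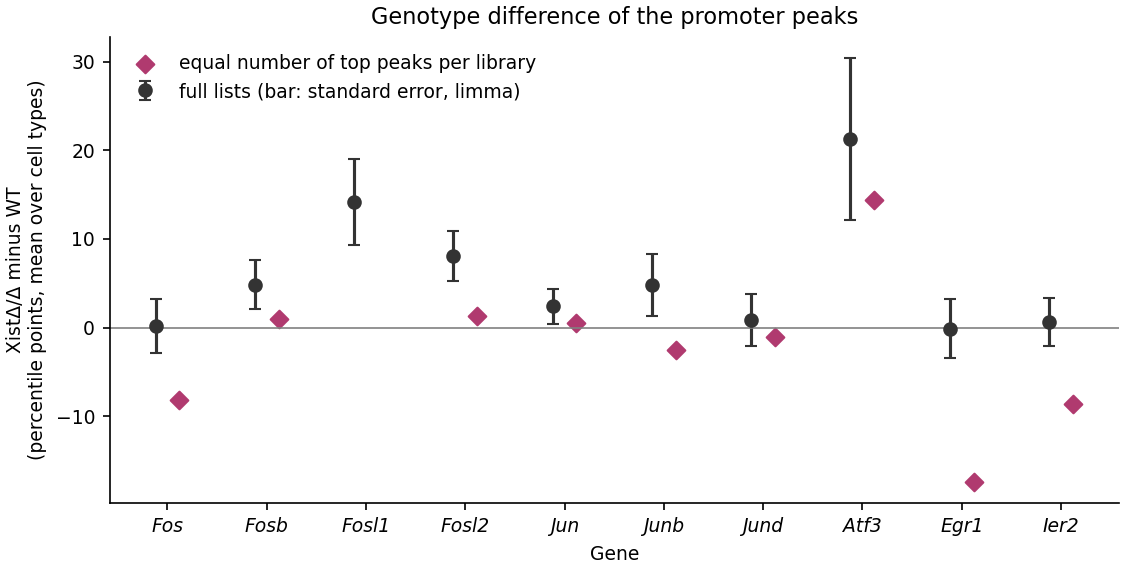
Genotype difference (XistΔ/Δ minus WT, percentile points, mean over LSK+ and LSK-) of the promoter peak of each gene. Circles with bars are the full lists with the limma standard error and diamonds are equal numbers of top peaks, where Fosl1 has no value. Positive values over the full lists move down over the top peaks at every gene, and 4 of the 9 stay above 0.

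Beyond the promoters, the 10 windows held 36 distal regions, 21 regions at promoters of other genes and 25 at the promoters of the listed genes themselves, some of which had several. The windows ranged from 2 regions at Fosl2 and 5 at Jun to 11 at Fosb and 11 at Junb. Jun had no distal region: its 2 regions outside the promoter lay near start sites of other annotated genes, and the stronger by mean, 10.7 kb upstream, was listed in 1 library at 13.8. Of the 82 regions, 37 were listed in all 8 libraries, 13 in 1 library and 69 in at least 2, which were tested. The regions listed in all 8 were 15 of the 25 listed-gene promoters, 10 of the 21 other promoters and 12 of the 36 distal regions, against 17.3% of all regions of the series. That share covers regions of every class together and was not matched to promoters or to distal regions near genes.

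The strongest element outside a promoter belonged to Fos. A region 18.5 kb upstream of Fos, intergenic (chr12:85454994-85455788), stood at 98.9 and 97.3 (WT) against 98.7 and 98.2 (XistΔ/Δ) in LSK+, and 97.7 and 95.7 (WT) against 99.1 and 96.1 (XistΔ/Δ) in LSK-. It thus ranked above the Fos promoter in all 8 libraries. A region 12.2 kb downstream of the start site (chr12:85485776-85486425), chosen after its values were seen, stood at 91.0 to 93.9 in LSK+ and 92.0 to 94.8 in LSK-, with all 4 XistΔ/Δ libraries above all 4 WT libraries. Over equal numbers of top peaks its genotype difference turned from 1.78 to −1.98 points and its cell type difference from 0.328 to −0.919. The differences of both regions were within the SE of the fit, both for cell type (−1.15 ± 4.09 and 0.328 ± 4.04 points) and for genotype (0.634 ± 4.09 and 1.78 ± 4.04). The 201 bases around each summit are shown because these were the strongest regions of the Fos window besides its promoter (chr12:85455293-85455493 and chr12:85486007-85486207, + strand). At summits, the AP-1 site TGANTCA, the CRE-like TGACNTCA, the GATA factor site AGATAA, the Runx site TGTGGT and the PU.1 site GAGGAAGT were searched on both strands, and neither window held one of these. The CArG box was not among the motifs searched at summits. The downstream window does hold CCATATTTGG, which has the letters of a CArG box and is left in lower case. How often that box occurs at all summits was not counted.
Fos upstream: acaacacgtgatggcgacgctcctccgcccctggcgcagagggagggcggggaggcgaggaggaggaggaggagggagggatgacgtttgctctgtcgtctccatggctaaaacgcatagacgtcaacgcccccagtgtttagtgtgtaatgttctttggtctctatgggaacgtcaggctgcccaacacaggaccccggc
Fos downstream: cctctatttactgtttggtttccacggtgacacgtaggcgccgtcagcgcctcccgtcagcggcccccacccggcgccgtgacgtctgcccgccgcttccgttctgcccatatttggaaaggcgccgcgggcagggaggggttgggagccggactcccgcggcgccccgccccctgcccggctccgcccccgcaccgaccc
A smaller region 1.6 kb upstream of Fos was listed in both LSK- XistΔ/Δ libraries (50.6 and 37.3) and in no other library, and was also chosen after its values were seen. With 6 values at 0 it entered the fit only through the libraries where it is listed, so no test is given.

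At Egr1 a pair of neighbouring intergenic regions upstream of the gene differed between the cell types in opposite directions. The region 5.1 kb upstream of the nearest start site (chr18:34854480-34855765) was not listed in the WT libraries of LSK+ and stood at 36.4 and 42.4 in their XistΔ/Δ counterparts. In LSK- it stood at 81.2 and 60.6 (WT) and at 86.0 and 77.3 (XistΔ/Δ). The 4 LSK- libraries did not overlap the 4 LSK+ libraries. The difference of 56.6 ± 6.30 points was the only one called among the 69 regions, with an adjusted p of 0.0217 in limma and 0.0182 with the replicate number as a block. It was 65.4 points within replicate 1 and 47.7 within replicate 2. The region 3.4 kb upstream (chr18:34856041-34856664) stood at 87.3 and 76.3 (WT) against 90.7 and 88.9 (XistΔ/Δ) in LSK+, and 44.5 and 57.1 (WT) against 54.4 and 83.5 (XistΔ/Δ) in LSK-. Here LSK+ was higher, with LSK- XistΔ/Δ replicate 2 inside the LSK+ range, and the difference of −25.9 ± 8.11 points had an adjusted p of 0.201.

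The call at −5.1 kb depended on single libraries. It was kept without LSK- WT replicate 2 (adjusted p = 0.0265) and without LSK- XistΔ/Δ replicate 2 (0.0452). It was lost without replicate 1 (0.0913) or 2 (0.0540) of LSK+ WT, replicate 1 (0.124) or 2 (0.0806) of LSK+ XistΔ/Δ, and replicate 1 of LSK- WT (0.0599) or of LSK- XistΔ/Δ (0.0837), while the difference stayed between 51.4 and 61.7 points. With the rule that the peak fills at least 50% of the merged region, the −5.1 kb difference was 41.8 points (adjusted p = 0.596 by limma). The −3.4 kb difference became −85.8 points, the size of its LSK+ mean (85.8), so its LSK- peaks all counted as 0. That region then entered the fit only through LSK+, and no test is given for it under this rule. A further Egr1 region, 19.3 kb downstream of the start site, was chosen for description after its values were seen. It was listed in the 4 LSK- libraries (70.6, 37.4, 85.7 and 31.6) and in no LSK+ library, and since it entered the fit only through LSK-, no test is given.

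**Figure D3:**
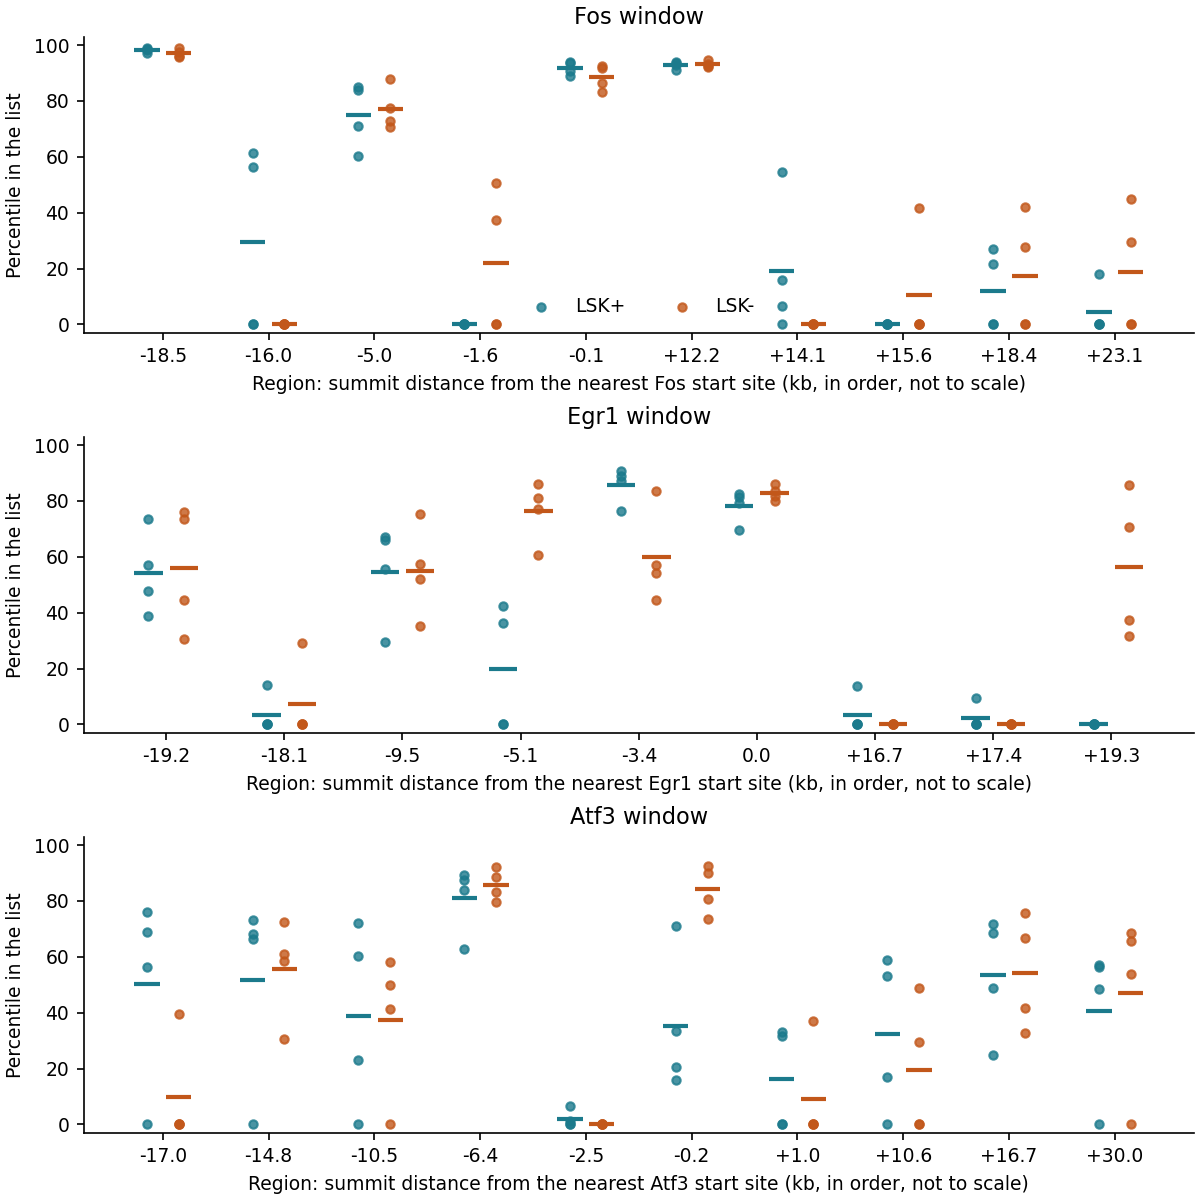
Percentile of every region in the windows of Fos, Egr1 and Atf3, each point 1 library and each line the mean of 4 libraries, with regions ordered by distance of the summit from the nearest annotated start site of the gene. LSK+ and LSK- coincide at the strong Fos regions upstream, at the start site and downstream, and separate at Egr1 −5.1 kb and at the inner Atf3 promoter (−0.2 kb).

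Among the 69 tested regions 1 was called higher in LSK-, against 1.68% of all 92019 regions, and none higher in LSK+ (0.611% of all). None was called for genotype in either direction, as for 0.0% of all regions. At an unadjusted p below 0.05 there were 10 of the 69 for genotype, against 10.7% of all regions, and 10 for cell type, against 16.5%. All LSK- libraries were above all LSK+ libraries at 4 of the 69, against 4.78% of all regions, and the reverse held at 1, against 2.75%. All XistΔ/Δ libraries were above all WT libraries at 8 of the 69, against 4.33% of all, and the reverse held at none, against 0.00326%. Over equal numbers of top peaks 0 of the 47 members so tested had XistΔ/Δ above WT throughout (0.323% of all) and 1 had the reverse (0.254%). Of the 8 regions, 3 were promoters of other genes: D730003I15Rik, Ccdc85b and Reep2, the last 19.2 kb upstream of Egr1. The others were regions 16.7 kb inside Atf3 and 9.54 kb upstream of Egr1, the Fos region 12.2 kb downstream and both Fosl2 regions. The 2 regions with separated cell types not yet described belonged to other genes of the windows and, like the Jund region after them, were chosen after their values were seen. The Prdx2 promoter region in the Junb window was listed in no LSK+ library and at 37.1, 28.3, 80.8 and 25.4 in LSK-. The promoter of Ctsw, which encodes a protease of cytotoxic lymphocytes, lies in the Fosl1 window and stood at 59.5, 33.1, 66.6 and 59.8 in LSK+ and at 16.9 and 23.2 in 2 of 4 LSK- libraries (adjusted p = 0.0844). A weak intergenic region 3.5 kb upstream of Jund was listed in 3 LSK+ libraries (14.5, 33.6 and 29.8) and in no LSK- library. The Prdx2 and Jund regions likewise entered the fit only through the cell type in which they are listed, and no test is given for them.

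**Figure D4:**
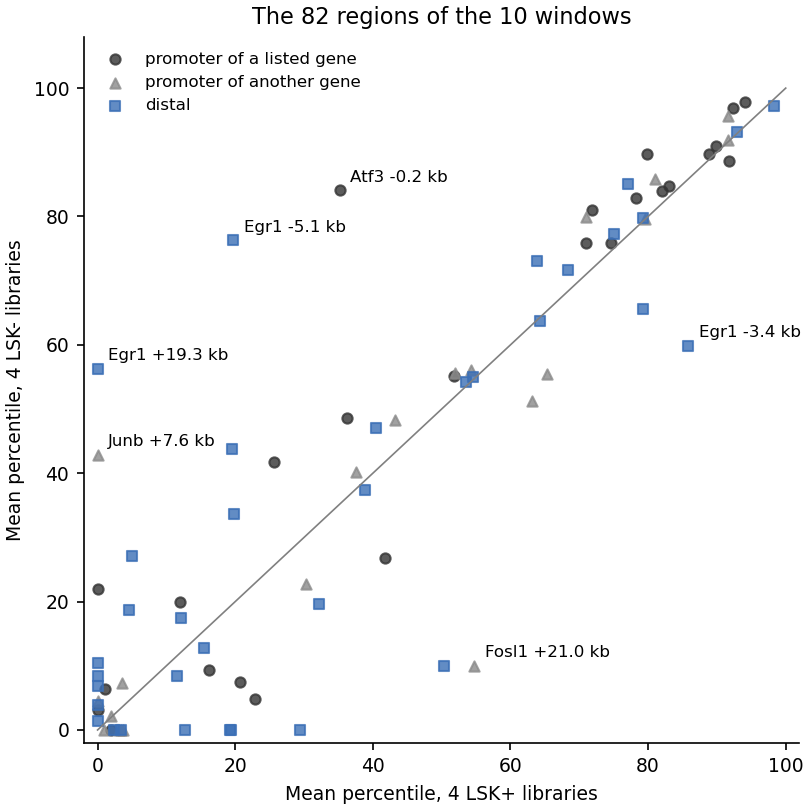
Mean percentile of each of the 82 regions over the 4 LSK+ libraries (horizontal axis) and the 4 LSK- libraries (vertical axis), by class of region, with the diagonal of equality. The labelled regions at Egr1, Atf3, Fosl1 (Ctsw promoter) and Junb (Prdx2 promoter) lie off it, with Egr1 −3.4 kb and the Ctsw promoter on the LSK+ side.

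The sequences around the last 3 summits described show how their letters differ (201 bases, + strand). The Prdx2 region (chr8:84971050-84971250) held AGATAA in reverse, in capitals, on both sides of the summit, and the Ctsw region (chr19:5468421-5468621) and the Jund region (chr8:70695361-70695561) held none of the motifs searched at summits.
Prdx2: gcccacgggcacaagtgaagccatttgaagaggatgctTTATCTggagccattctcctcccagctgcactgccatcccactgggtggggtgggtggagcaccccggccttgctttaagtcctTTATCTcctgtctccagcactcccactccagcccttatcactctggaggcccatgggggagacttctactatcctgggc
Ctsw: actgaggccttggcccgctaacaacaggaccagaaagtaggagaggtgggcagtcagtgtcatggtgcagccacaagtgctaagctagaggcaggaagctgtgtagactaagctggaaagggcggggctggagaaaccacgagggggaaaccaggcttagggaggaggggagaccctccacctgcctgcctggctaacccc
Jund upstream: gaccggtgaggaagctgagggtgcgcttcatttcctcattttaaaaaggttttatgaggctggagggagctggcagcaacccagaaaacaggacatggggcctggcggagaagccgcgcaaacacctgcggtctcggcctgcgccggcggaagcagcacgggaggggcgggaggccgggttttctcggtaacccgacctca
Over all 82 regions TGANTCA occurred within 100 bases of 7 summits (8.54%), against 8.44% of all regions of the series. TGTGGT occurred at 16 (19.5% against 24.7%), AGATAA at 7 (8.54% against 16.9%), TGACNTCA at 2 (2.44% against 4.43%) and GAGGAAGT at 1 (1.22% against 7.06%). The reference holds regions of every class and was not matched to the promoters among the 82. At the 36 distal regions alone, TGTGGT occurred at 10 (27.8%), TGANTCA at 3 (8.33%), AGATAA at 3 (8.33%), GAGGAAGT at 1 (2.78%) and TGACNTCA at 0. That single GAGGAAGT lay at the −3.4 kb region of Egr1.

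In each of the other windows the strongest region outside the listed promoters was also read. The Hook2 promoter in the Junb window stood at 83.4 to 95.7 in LSK+ and 91.9 to 98.1 in LSK-. The promoter of D730003I15Rik, upstream of Atf3, stood at 62.9 to 89.3 in LSK+ and 79.7 to 92.3 in LSK-. A region 6.6 kb upstream of Fosb ranged from 53.5 to 90.6 over all 8 libraries, and the Ccdc85b promoter in the Fosl1 window from 72.6 to 86.9. A region 5.9 kb downstream of the Ier2 start site stood at 81.2 and 67.7 (WT) against 82.3 and 86.1 (XistΔ/Δ) in LSK+, and 44.6 and 55.0 (WT) against 78.2 and 84.5 (XistΔ/Δ) in LSK-. XistΔ/Δ was higher in 4 of 4 pairs, by 20.6 ± 5.59 points (adjusted p = 0.322 by limma) and by 12.7 over equal numbers of top peaks, and the cell type difference was −13.8 ± 5.59 points (adjusted p = 0.306). The Gm3336 promoter in the Jund window ranged from 33.1 to 81.7. The only distal region of the Fosl2 window, 13.3 kb upstream, was not listed in the WT libraries of LSK+ and stood at 39.5 and 38.7 in their XistΔ/Δ counterparts. In LSK- it stood at 38.7 and 18.7 (WT) and at 48.9 and 68.7 (XistΔ/Δ). Its cell type difference of 24.2 ± 7.13 points had an adjusted p of 0.179, and its genotype difference of 34.6 ± 7.13 points one of 0.242.

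Counted without regard to rank, the 10 windows held 58 and 41 peaks (WT) against 70 and 64 (XistΔ/Δ) in LSK+, and 61 and 52 (WT) against 64 and 63 (XistΔ/Δ) in LSK-. XistΔ/Δ had the higher count in 4 of 4 pairs, as it had the longer list. Per 1000 peaks of the list the values were 0.915 and 1.38 (WT) against 0.849 and 1.01 (XistΔ/Δ) in LSK+, and 0.857 and 1.38 (WT) against 0.699 and 1.01 (XistΔ/Δ) in LSK-. The shorter replicate 2 lists thus had the higher share in all 4 groups. The genotype difference of −0.241 per 1000 peaks was smaller than the SD between replicates (0.276) and gave p = 0.278 in a two-sided exact permutation test within cell type, whose smallest possible p over 36 assignments is 0.0556.

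The partners and regulators of these genes were read at their promoters too. Of 20 other leucine-zipper genes that pair or compete with AP-1 (Batf, Atf, Maf, Nfe2 and related genes), 30 other immediate early and early response genes and 20 upstream regulators (Srf and its cofactors, Elk factors, MAP kinases), all 70 were tested, and limma called 0 in either direction for genotype or cell type. At an unadjusted p below 0.05 there were 3, 2 and 2 for genotype and 2, 2 and 3 for cell type, against the 15.0% and 10.97% of all promoters given above. The median of their mean percentiles was 79.2, 89.4 and 92.9, and the median genotype difference 5.68, 3.82 and 3.21 points, each below the 6.38 of all promoters. The only one of the 70 whose cell types did not overlap was Nfe2l2, the antioxidant response factor. It stood at 93.1 to 97.3 in LSK+ and 97.5 to 98.3 in LSK- (adjusted p = 0.594 by limma). Among all promoters, 1.79% had all LSK- above all LSK+ libraries and 1.97% the reverse. All XistΔ/Δ libraries were above all WT libraries at 1, 2 and 1 of the 20, 30 and 20 genes, against 8.18% of all promoters. Zfp36, which encodes an mRNA decay factor, stood at 68.3 in LSK+ and 86.2 in LSK- (adjusted p = 0.239). Both genes were named after their values were seen.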

How the data were processed

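The files were peak lists (MACS2 narrowPeak), 1 per library. The authors trimmed reads with Trim Galore, aligned them to mm10 with Bowtie2 2.3.5.1, removed reads of low mapping quality and mitochondrial reads with SAMtools 1.10, and called peaks per library with MACS2 2.2.7.1 on fragments. Each deposited peak has a fold enrichment (ratio), a −log10 p-value and a −log10 q-value at its summit. DiffBind stands in the submitters' processing notes, and no file of it was used here. Peaks on chromosomes 1 to 19 and X were ranked by −log10 p within each list. Fragments at a summit and the background pileup were solved from the fold and the −log10 p, which had a solution for 100% of peaks.

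A promoter value was the highest percentile with a summit within 3 kb of a start site (GENCODE basic annotation on mm10), and a region was the union of overlapping peaks. Differences were fitted with limma 3.58.1 (R 4.3.3), with a mean per group and empirical Bayes over all features listed in at least 2 libraries, with Benjamini-Hochberg adjustment over all of them and a threshold of 0.05, checked on simulated data. Named regions were those called, and the one of highest mean in each window outside the listed promoters; other regions were named after their values were seen. The genes and gene lists were chosen with earlier results of these data known. Cyr61, Mkl1 and Mkl2 were matched by their current symbols. Replicate numbers mark the sequencing instrument (MGISEQ for replicate 1 and NovaSeq for replicate 2, from the study's sample list), and deviations of replicate 1 from the group mean correlated by 0.305 to 0.528 between groups, so a fit with the replicate number as a block was also made. Further alternatives were equal numbers of top peaks, ranking by fold, a stricter q, other filters, a nearer promoter limit, a larger overlap, other flanks and each library left out. Sequences came from the RefSeq GRCm38.p6 assembly, and start sites were the GENCODE ones nearest the RefSeq gene start. Some of the marker, list and sequence results are not reported here.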

Additional observations from a re-analysis of the deposited data

How the results depend on the processing

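Unless stated, the values here are differences in percentile points, XistΔ/Δ minus WT for genotype and LSK- minus LSK+ for cell type. The counts of called promoters and of regions called for genotype were 0 under every alternative run. The count of regions called for cell type, 1 as reported, was 2 over equal numbers of top peaks (with and without the replicate block, the former added after the data were seen), 0 among features with a peak in every library, and 0 to 2 with 1 library left out. The replicate block (paired by replicate number) changed none of these counts, and the paired exact permutation p for peaks in the windows was 0.125, the smallest its 16 assignments allow. Of the 2 regions called over equal numbers of top peaks, 1 was the Egr1 region 5.1 kb upstream. Its LSK+ peaks, ranked 52453 and 36383 from the top in XistΔ/Δ replicates 1 and 2, fell outside the 29829 kept. That region thus entered the top-peak fit only through LSK-, so its call there is no test between the cell types.

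Over equal numbers of top peaks, with or without the replicate block, the genotype difference turned to −8.16 at the Fos promoter, −8.60 at Ier2, −2.58 at Junb and −1.10 at Jund, and at regions to −0.564 (Fos, 18.5 kb upstream), −10.2 (Fosb, 6.64 kb upstream), −6.10 (Ctsw), −1.47 (Hook2) and −3.76 (Gm3336). The cell type difference turned to −2.15 at the Fosl2 promoter, −0.376 at Ier2, −11.3 at the region 6.64 kb upstream of Fosb and −3.17 at Ccdc85b. Ranked by fold enrichment, genotype differences turned to −4.82 (Fos promoter), −0.636 (Ier2) and −1.27 (Fos, 18.5 kb upstream), and cell type differences to 0.132 (Fos promoter) and 2.62 (Fos, 18.5 kb upstream). With −log10 q of at least 5 the Egr1 promoter turned to 0.382 for genotype. The cause was not tested.

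With 1 library left out, genotype differences ran from −3.39 to 3.15 (Egr1 promoter), −2.16 to 2.48 (Fos), −1.32 to 2.55 (Ier2), −1.39 to 3.01 (Jund), −11.2 to 15.9 (Egr1, 19.3 kb downstream), −0.111 to 1.38 (Fos, 18.5 kb upstream), −2.06 to 14.8 (Fosb, 6.64 kb upstream), −0.0331 to 5.88 (Hook2) and −3.66 to 24.1 (Prdx2). Cell type differences ran from −1.05 to 3.26 (Fosb promoter), −0.757 to 4.74 (Fosl2), −0.299 to 3.57 (Ier2), −0.322 to 10.3 (D730003I15Rik), −7.93 to 8.90 (Fosb, 6.64 kb upstream) and −1.80 to 2.11 (Ccdc85b). Peaks absent from a list count as 0, so differences at weak regions depend on depth.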
